A study of Mus musculus with 15 samples.

Results

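Mt1 and Mt2, the metallothionein genes of most mouse tissues, were followed together with 8 target genes of the transcription factor NRF2 (Hmox1, Nqo1, Gclc, Gclm, Slc7a11, Gpx2, Txnrd1 and Srxn1) in all 15 pancreas RNA-Seq libraries of the study. The genes were listed by name and were chosen by a readout of these data, a low Mt2 level in KMC, so the values of KMC against KC are given as a description with no test. All 10 genes were listed in every table, among 15175 genes in the MC table and 49585 in each of the other tables, and all 10 passed the filter on low counts in each table. The mice were C57BL/6. The transgene was expressed from a tamoxifen-inducible Cre (Ela-CreERT, called Bac-cre or B) that is driven by the acinar elastase I promoter. MC mice carried M46, a kinase-dead form of hematopoietic progenitor kinase 1 (HPK1), and their 3 libraries were set against 3 libraries labelled B control, all from pancreata of age 2 months. HC mice carried HPK1 itself, and their 3 libraries were set against 2 libraries labelled WT, all of age 4 months. These 4 groups received cerulein, a secretagogue that causes acute pancreatitis, and the pancreas was taken 24 hours later. KC mice (Ras/B) carried a mutant Ras allele switched on by the same Cre and KMC mice (M46/Ras/B) carried M46 in addition, with 2 libraries each. KC pancreata were of age 15 months and KMC pancreata of age 9 months, so age and genotype cannot be told apart, and the study describes these samples as pancreatic cancers. Each library was a pool of 3 mice, and a p-value measures the spread between pools. All tissue was bulk pancreas, in which fewer cells of a type and less RNA per cell cannot be told apart.

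Total counts were 29766575 to 37829604 in the MC and HC tables and 30208416 to 38745907 in the KC and KMC libraries. Map4k1, which encodes HPK1 and is also a leukocyte gene, was at 7.85 to 9.03 CPM (counts scaled to the library total) in MC and 1.65 to 4.67 in its controls. It was at 5.001 to 7.85 in the libraries labelled HC and 11.9 to 15.3 in their controls, which goes against the label. The direction of every HC comparison stands under that doubt. T cell and B cell markers went the same way as Map4k1. Their median log2 fold changes were -0.70 and -1.31 in the libraries labelled HC, against -0.00 over all genes. In MC they were 1.94 and 3.80, against -0.02 over all genes. The part of these cells in the Map4k1 values was not tested. Libraries also differed in sex as read from Xist and Ddx3y. Of these, replicate 3 labelled HC was male-like and the other 4 libraries of its table were female-like, and both KC libraries were male-like while both KMC libraries were female-like. The acinar marker list took 37.7% to 56.2% of counts in the MC table, 24.8% to 69.4% in KC and KMC, and only 5.79% to 9.07% in the HC table, although its tissue was labelled pancreas too. Levels below are CPM scaled by the trimmed mean of M values (TMM) within each table. The tables come from separate experiments, and levels set across them were not tested.

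Metallothioneins are small cysteine-rich proteins that bind zinc and copper, and their genes are switched on by the zinc sensor MTF1 through metal response elements (MREs), by glucocorticoids and by oxidative stress. NRF2, encoded by Nfe2l2, is held back by KEAP1 and, once released by oxidants or electrophiles, pairs with small MAF proteins on antioxidant response elements (AREs). Acinar cells are rich in zinc and in glutathione, and a fall of glutathione is an early event of cerulein pancreatitis.

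Mt1 and Mt2 lie side by side on chromosome 8, and their promoter windows are shown because both genes were far lower in KMC than in KC. The windows run from 250 bases before to 50 after the start in RefSeq (GRCm38.p6), and capitals mark matches to the MRE core letters TGCACNC or TGCGCNC on either strand. Of all 32817 windows of this kind, 25.7% held at least 1 match, 7.12% at least 2, 1.97% at least 3 and 0.518% at least 4. The Mt1 window held 3 matches and the Mt2 window 4. Among the other members with a window, that of Gclm held 3 as well, that of Srxn1 held 1, and the rest held none. A match of letters is a description and not a site, and bases outside the windows were not searched.
Mt1 promoter window, chr8:94178839-94179138, plus strand: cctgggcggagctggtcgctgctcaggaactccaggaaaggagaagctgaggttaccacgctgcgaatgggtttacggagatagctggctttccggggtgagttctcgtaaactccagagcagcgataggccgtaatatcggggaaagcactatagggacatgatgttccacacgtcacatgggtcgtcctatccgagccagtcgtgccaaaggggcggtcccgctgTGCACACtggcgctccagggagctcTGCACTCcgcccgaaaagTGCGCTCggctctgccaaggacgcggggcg
Mt2 promoter window, chr8:94172368-94172667, plus strand: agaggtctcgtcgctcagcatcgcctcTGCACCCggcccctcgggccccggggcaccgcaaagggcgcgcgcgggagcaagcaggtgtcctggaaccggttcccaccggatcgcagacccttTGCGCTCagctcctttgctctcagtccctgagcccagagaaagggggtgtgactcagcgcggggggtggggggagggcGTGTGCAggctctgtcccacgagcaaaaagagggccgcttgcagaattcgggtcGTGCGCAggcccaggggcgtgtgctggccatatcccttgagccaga

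Of the 10 genes, 8 had a promoter window in the RefSeq table (Hmox1 and Gclc did not), and Txnrd1 had several. The ARE core letters TGACNNNGC were found on either strand in 12.4% of all windows, and 7.81% held the AP-1 letters TGANTCA. Among the members the ARE letters were found in the windows of Mt2, Gclm, Txnrd1 and Srxn1, each with 1 match. They were in none of the windows of Mt1, Nqo1, Slc7a11 and Gpx2. Bases outside the windows were not searched, so a window without a match does not show that its gene lacks an ARE. The stretches are shown because Gclm and Txnrd1 were above both controls in all libraries labelled HC while Srxn1 was lower in MC without overlap. None of these changes had an edgeR adjusted p below 0.05. Nqo1 and Slc7a11 were above both controls in the libraries labelled HC as well and had no match. A link between match and change was not tested. Capitals mark the match, which reads on the opposite strand in Gclm, Txnrd1 and Srxn1. The match of Mt2 overlaps an AP-1 match.
Mt2 stretch, chr8:94172519-94172567, plus strand: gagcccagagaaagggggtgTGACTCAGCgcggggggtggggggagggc
Gclm stretch, chr3:122245403-122245451, plus strand: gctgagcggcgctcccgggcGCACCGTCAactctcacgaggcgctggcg
Txnrd1 stretch, chr10:82859094-82859142, plus strand: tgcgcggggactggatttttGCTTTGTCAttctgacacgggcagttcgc
Srxn1 stretch, chr2:152105532-152105573, plus strand: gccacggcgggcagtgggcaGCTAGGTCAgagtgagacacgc

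The Mt2 level carries a limit that Mt1 does not. In GENCODE vM21 (GRCm38) Mt2 spans chr8:94172664-94173568 on the plus strand, and 432 of its 588 exon bases (73.5%) lie under Gm45774, an antisense gene of 1 exon at chr8:94170748-94173412. Mt1, at chr8:94179082-94180327, has no base under an opposite-strand gene, and the other members have none except Gclm with 4.71%. The counts of the HC and KMC tables behaved as if strand was not used: of 34 protein-coding genes whose exon bases all lie under opposite-strand genes, 30 were at 0 in all HC table libraries (88.2%) and 29 in all KMC table libraries (85.3%), against 20.1% and 24.4% of 15682 genes with no such base. Reads over the shared bases would then be given to neither gene, and only 156 bases of Mt2 would be counted. Gm45774 itself had 0 to 19 counts per library. Mt1 had 28.1 to 90.4 times the counts of Mt2 in a library, and this ratio is not a ratio of the transcripts. Levels of Mt2 can be set against each other within a table, but not against Mt1.

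In KMC both metallothioneins were low. Mt1 was at 173 and 126 CPM in the 2 KMC libraries and at 1295 and 608 in the 2 KC libraries. Mt2 was at 4.15 and 3.53 CPM in KMC (169 and 296 counts) and at 28.9 and 21.7 in KC (424 and 560 counts). For both genes the groups did not overlap, and the fitted log2 difference was -2.67 for Mt1 and -2.72 for Mt2, that is, 6.35 and 6.58 times lower in KMC. For Mt1 the log2 difference was -2.03 without KC replicate 1 and -3.11 without KC replicate 2. The KC libraries differed from each other more in Mt1 than the KMC libraries did. The size depends on scaling, since the acinar list took 60.5% and 69.4% of counts in KC and 24.8% and 49.5% in KMC. Scaled by library size alone, which moved the median of all genes to 1.47, the differences were -1.16 for Mt1 and -1.25 for Mt2. Both were still lower in KMC. Of 34 acinar markers tested, 33 were lower in KMC as well, 31 without overlap, where 30.9% of all genes were. Their median log2 difference was -1.99 under TMM, and their part in the metallothionein values was not tested.

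Hmox1 and Gpx2 went the other way in KMC. Hmox1, heme oxygenase 1, which breaks down heme and is abundant in macrophages, was at 11.6 and 35.3 CPM in KMC and 4.63 and 4.95 in KC, a log2 difference of 2.29. Gpx2, the epithelial glutathione peroxidase of the gut, was at 6.29 and 14.5 CPM in KMC and 2.59 and 2.17 in KC, a log2 difference of 2.14. In both genes KMC replicate 2 was the highest, and without it the differences were 1.297 and 1.43. The 12 macrophage markers summed to 1019 and 3140 CPM in KMC and 329 to 374 in KC, and 11 of the 12 were higher without overlap, where 34.4% of all genes were. The 9 fibroblast markers summed to 2138 and 6252 CPM in KMC and 437 to 898 in KC. No gene of either list was at 0, and the part of these cells in the Hmox1 and Gpx2 values was not tested.

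The glutathione and thioredoxin genes were lower in KMC by smaller amounts. Slc7a11, which brings in cystine for glutathione synthesis, was at 8.08 and 8.46 CPM in KMC and 11.2 and 20.2 in KC, a log2 difference of -0.93. Gclm, the modifier subunit of glutamate-cysteine ligase, had -0.80, and Gclc, the catalytic subunit of that rate-limiting enzyme, had -0.65. Nqo1, a quinone reductase, was low in this table, at 0.491 and 0.584 CPM in KMC and 1.02 and 0.697 in KC. Txnrd1, thioredoxin reductase 1, and Srxn1, sulfiredoxin, overlapped between the groups, with -0.08 and -0.39. In all, 2 of the 10 members were higher without overlap and 6 were lower without overlap. Groups of this size did not overlap in 34.4% of all 15733 genes as higher and in 30.9% as lower, and nothing is read from the count, since the genes were chosen on this comparison. Under library size alone 8 members were higher and 2 lower, and with library sizes that leave out the acinar list 4 were higher and 6 lower, so apart from Mt1, Mt2, Hmox1 and Gpx2 the directions in KMC hang on the scaling.

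**Figure D1:**
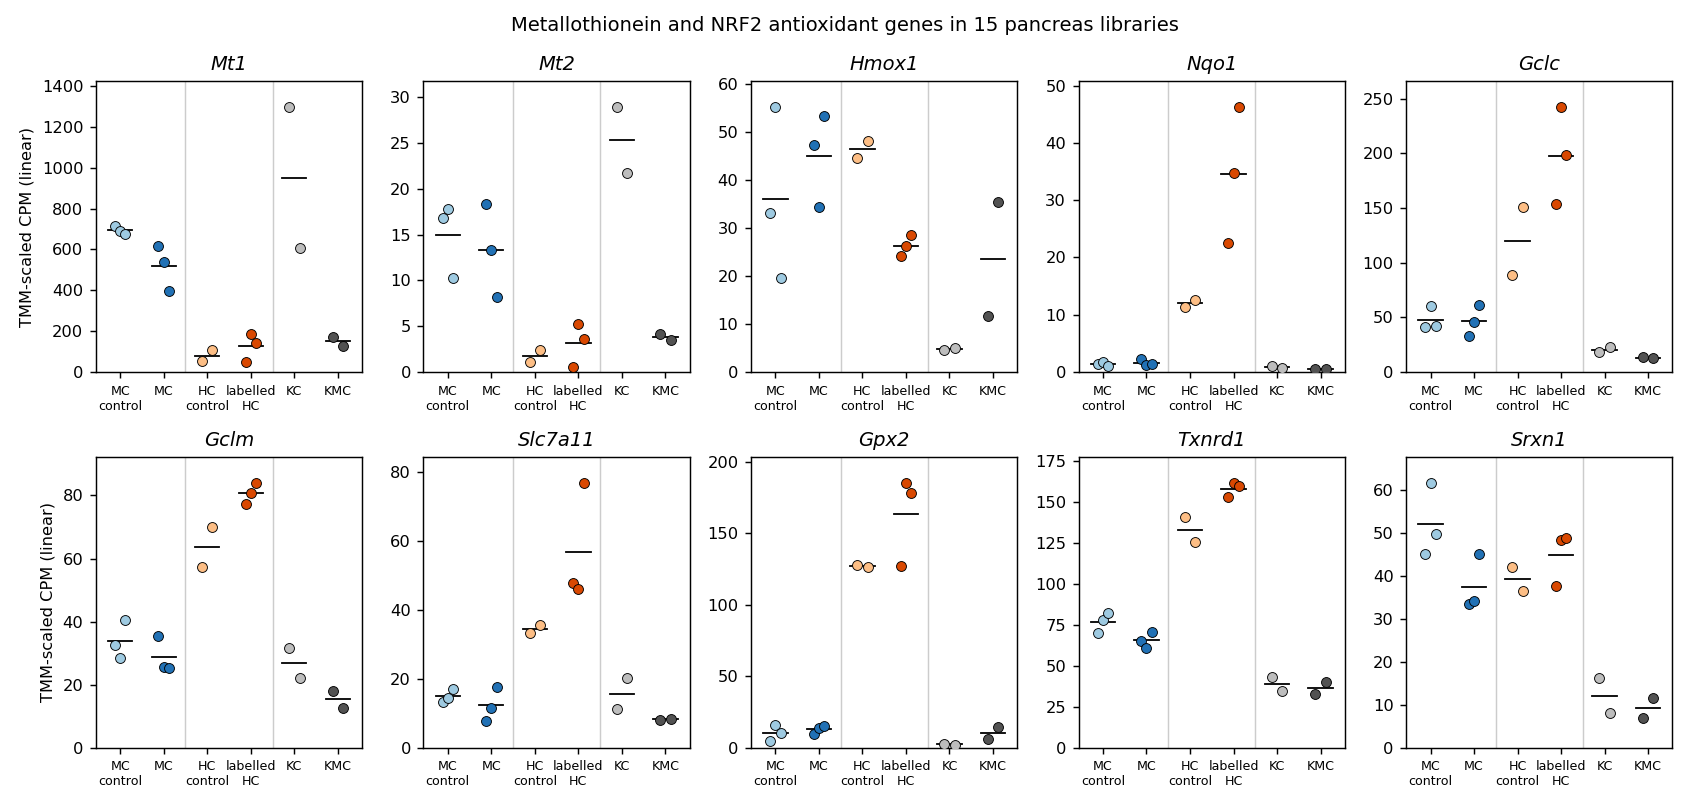
Levels of the 10 genes in each library, in TMM-scaled CPM on a linear axis from 0, with points for libraries and a line for the group mean. Mt1 sits at 126 to 173 in KMC and at 608 to 1295 in KC, and Nqo1 at 22.5 to 46.2 in the libraries labelled HC and 11.3 to 12.6 in their controls. Levels in different tables were not tested against each other.

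After cerulein, the libraries labelled HC had more of most NRF2 target transcripts than their controls. Nqo1 was at 22.5, 34.8 and 46.2 CPM in the libraries labelled HC and at 11.3 and 12.6 in the 2 controls. All 3 were above both controls, and the log2 fold change was 1.53 (SE 0.30), with an adjusted p of 0.0865 by the edgeR quasi-likelihood fit, adjusted by Benjamini-Hochberg over 18407 genes, which did not pass 0.05. DESeq2 gave 1.52 with an adjusted p of 6.5e-05 and called it. Without replicate 3, the male-like library, the log2 fold change was 1.24.

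Hmox1 was the exception among the members. It was at 24.2, 26.2 and 28.5 CPM in the libraries labelled HC and at 44.6 and 48.1 in the controls, with a narrow spread in both groups. The log2 fold change was -0.82 (SE 0.11, edgeR adjusted p = 0.0449), so Hmox1 fell, by less than the size of 1 on the log2 scale that a call needed. The adjusted p was above 0.05 without replicate 2 (0.130) or 3 (0.106) labelled HC and without control replicate 1 (0.191) or 2 (0.168), and with library sizes that leave out the acinar list it was 0.0521, while the change stayed at -0.90 to -0.76 in all of them. The 12 macrophage markers summed to 1750 to 2668 CPM in the libraries labelled HC and 2753 to 4570 in the controls, 11 of the 12 were lower, and none was at 0. Their part in the Hmox1 value was not tested.

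Genes of glutathione synthesis stood above both controls in all 3 libraries with the HC label. Slc7a11 was at 47.7, 46.2 and 76.9 CPM against 33.4 and 35.6 in the controls, and Gclc at 154, 242 and 198 against 88.6 and 151. The log2 fold changes were 0.72 (SE 0.24) for Slc7a11 and 0.72 (SE 0.28) for Gclc, with edgeR adjusted p of 0.224 and 0.284. Gclm was at 77.4, 80.7 and 83.9 CPM against 57.3 and 69.8, a change of 0.34 (SE 0.12, edgeR adjusted p = 0.233). The sizes hang on single libraries: Slc7a11 was at 0.43 without replicate 3 labelled HC, Gclc at 0.39 without control replicate 1 and 1.16 without control replicate 2, and Gclm at 0.21 without control replicate 1. These 3 genes act in one pathway, from cystine import to the first step of glutathione synthesis. Gpx2, which uses glutathione to reduce peroxides, was at 127, 185 and 178 CPM against 128 and 127, and overlapped.

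The thioredoxin genes and the metallothioneins showed smaller differences or a wider spread. Txnrd1 was at 153, 161 and 159 CPM in the libraries labelled HC against 141 and 125, a change of 0.25 (SE 0.10, edgeR adjusted p = 0.315), and did not overlap. Srxn1 was at 37.5, 48.2 and 48.7 CPM against 42.1 and 36.5, and overlapped. Mt1 was at 50.7, 185 and 141 CPM against 51.7 and 106, and Mt2 at 0.561, 5.24 and 3.58 against 1.06 and 2.36. In both metallothioneins replicate 1 labelled HC was below both controls and replicates 2 and 3 were above both, and the SE of the log2 fold change was 0.55 for Mt1 and 0.84 for Mt2, about as large as the change itself. Erythroid, islet and hepatocyte markers were also lower in replicate 1 labelled HC than in replicates 2 and 3, but replicate 1 was not below both controls. Not all lists did so, and the fibroblast markers summed to 8285, 4745 and 10019 CPM in replicates 1, 2 and 3. The 5 erythroid markers summed to 73.0 CPM in replicate 1, 793 in replicate 2 and 668 in replicate 3, and to 59.0 and 76.8 in the controls. The 7 islet markers summed to 3492, 5589 and 5384 against 2932 and 3154, and the 7 hepatocyte markers to 67.1, 123 and 123 against 61.5 and 116. Their part in the metallothionein values was not tested.

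By count, 0 of the 10 members were called by edgeR at an adjusted p of at most 0.05 and a log2 fold change of at least 1 in size, where 0.565% of all genes were called, and 1 (Nqo1) was called by DESeq2, where 2.88% were. At an unadjusted p below 0.05 in edgeR, 5 members were higher (Nqo1, Gclc, Gclm, Slc7a11 and Txnrd1), where 8.39% of all genes were higher, and 1 was lower (Hmox1), where 7.47% were. The same 5 members were higher without overlap, where 17.5% of all genes were, and Hmox1 was lower without overlap, where 16.1% were. Without replicate 3, edgeR had 3 members at an unadjusted p below 0.05, of which 2 were higher.

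**Figure D2:**
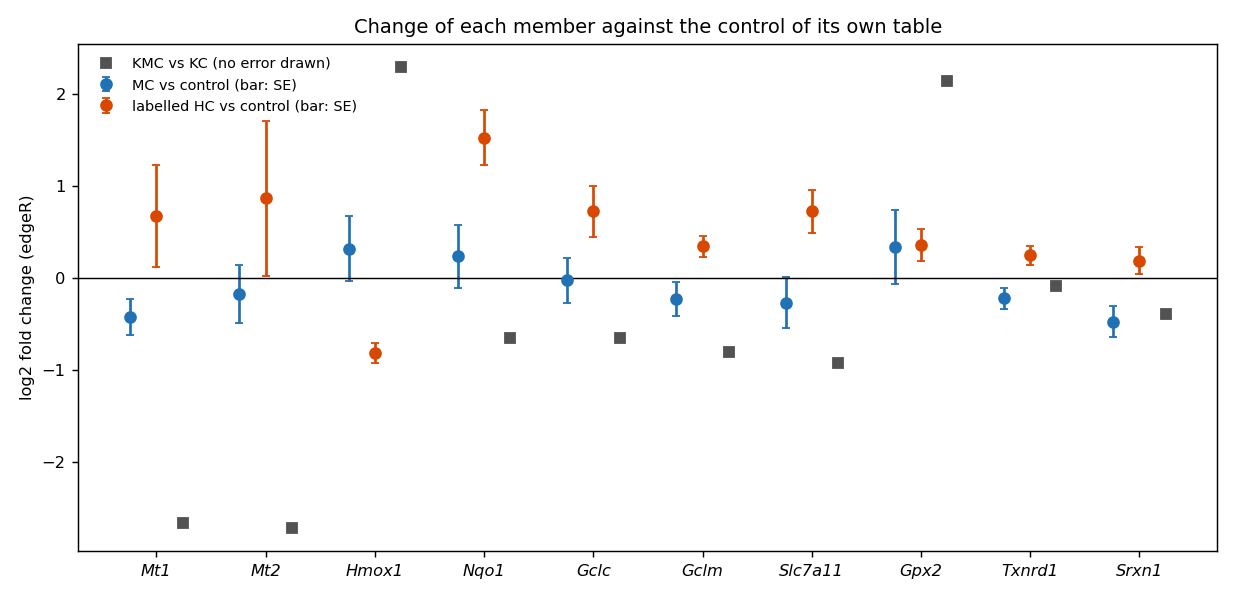
Log2 fold change of each member against the control of its own table, from the edgeR fit. Bars are the SE for MC and for the libraries labelled HC, and KMC against KC has no error drawn because the genes were chosen on it. Mt1 and Mt2 stand at -2.67 and -2.72 in KMC, and Nqo1 at 1.53 in the libraries labelled HC.

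The wider NRF2 list was higher in the libraries labelled HC as well. Of 41 further NRF2 target genes, all of which were tested, 39 were higher, with a median log2 fold change of 0.47 against -0.00 over all genes. At an unadjusted p below 0.05 in edgeR 23 were higher and 0 lower, where 8.39% of all genes were higher and 7.47% lower, and the count of higher genes without replicate 3 was 16 and under every other alternative 17 to 27. Only Abcc3, an export pump for glutathione and glucuronide conjugates, was called by edgeR (log2 fold change 1.04, SE 0.14, adjusted p = 0.0449), where 0.565% of all genes were called, and DESeq2 called 6, where 2.88% were. The call of Abcc3 was lost without replicate 2 (edgeR adjusted p = 0.106) or 3 (0.118) labelled HC, without control replicate 1 (0.261) or 2 (0.157), under library size alone (0.0512) and with library sizes that leave out the acinar list (0.0568), while its log2 fold change was 0.93 to 1.16 in all of these. The list's largest log2 fold changes were those of the glutathione transferase Gsta1, with 2.84 (SE 0.44), and of Aldh3a1, with 1.64 (SE 0.26). The glutathione transferases Gsta2, Gsta4 and Gsta3 followed, with 1.49 (SE 0.48), 1.38 (SE 0.21) and 1.29 (SE 0.24). All of these were chosen for naming after their values were seen. The 3 enzymes of glutathione turnover and NADPH supply Gss, Gsr and Me1, named after their values were seen too, had 0.79, 0.67 and 0.64. Ftl1 and Txn1, the ferritin light chain and thioredoxin 1, had 0.01 and 0.09. The lists were drawn up with earlier results of these data known, and Gsta1 and Gsta2 are close copies of each other whose counts are uncertain.

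**Figure D3:**
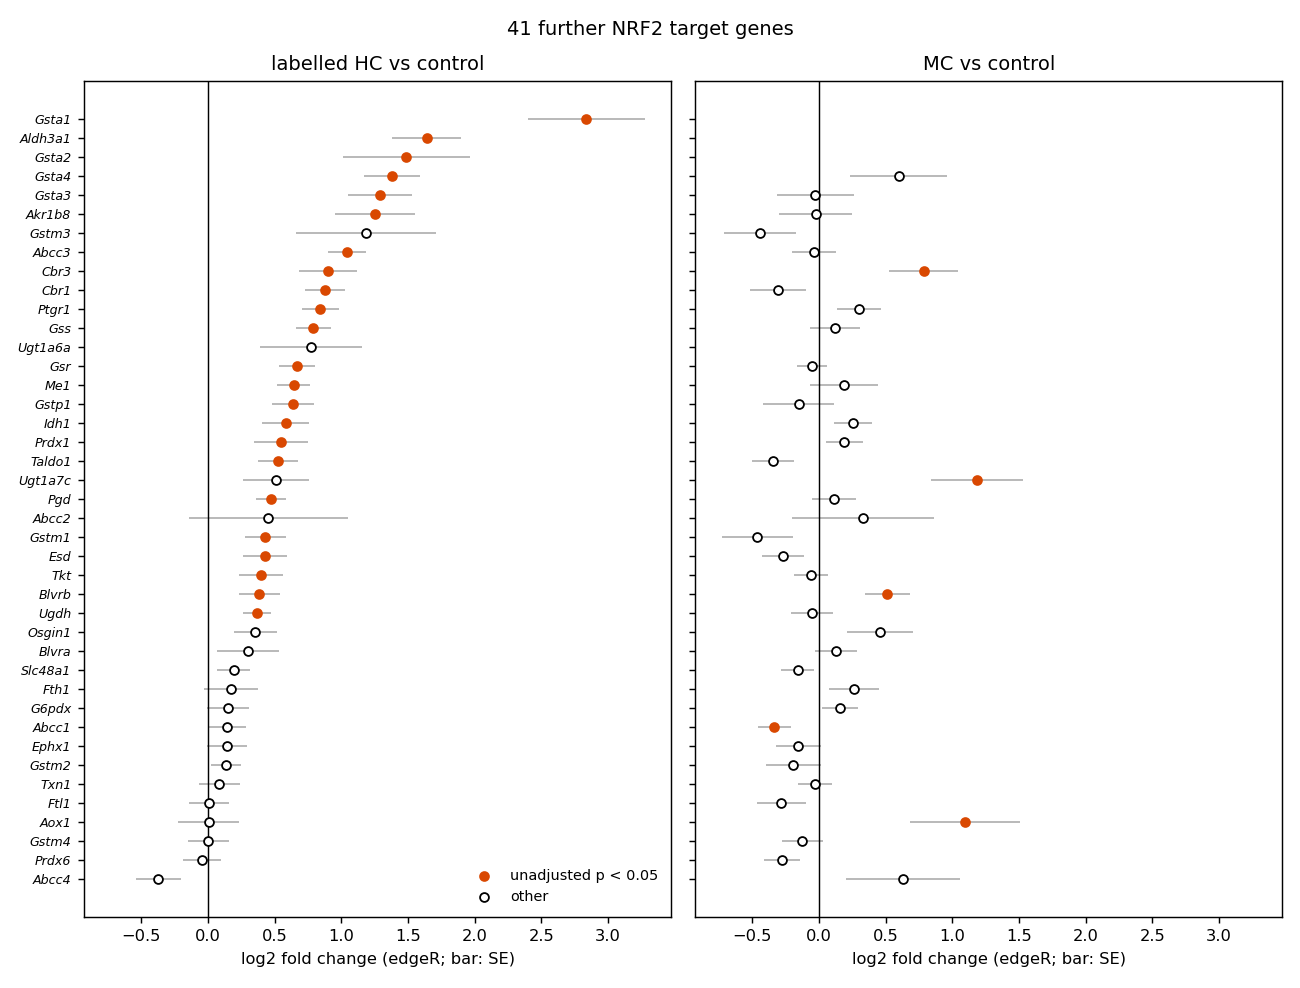
Log2 fold change with its SE for the 41 further NRF2 target genes, in the libraries labelled HC (left) and in MC (right), on the same axis and in the same order. Filled points have an unadjusted p below 0.05 in edgeR, and 4 genes without a point at right were not tested in MC. At left 39 of 41 lie above 0 and at right 17 of 37.

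Markers of other epithelia were also higher in these libraries. The 13 stomach and gut markers summed to 4839 to 6726 CPM in the libraries labelled HC and 943 to 1840 in their controls, with 6 of the 10 tested higher and 1 (Lgr5) lower without overlap, where 17.5% and 16.1% of all genes were, and none of the 13 at 0. The 10 ductal markers summed to 8157 to 10548 CPM against 6254 to 6620, with 6 higher and 1 (Spp1) lower without overlap and none at 0. Their part in the Nqo1, glutathione and Gsta values was not tested.

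**Figure D4:**
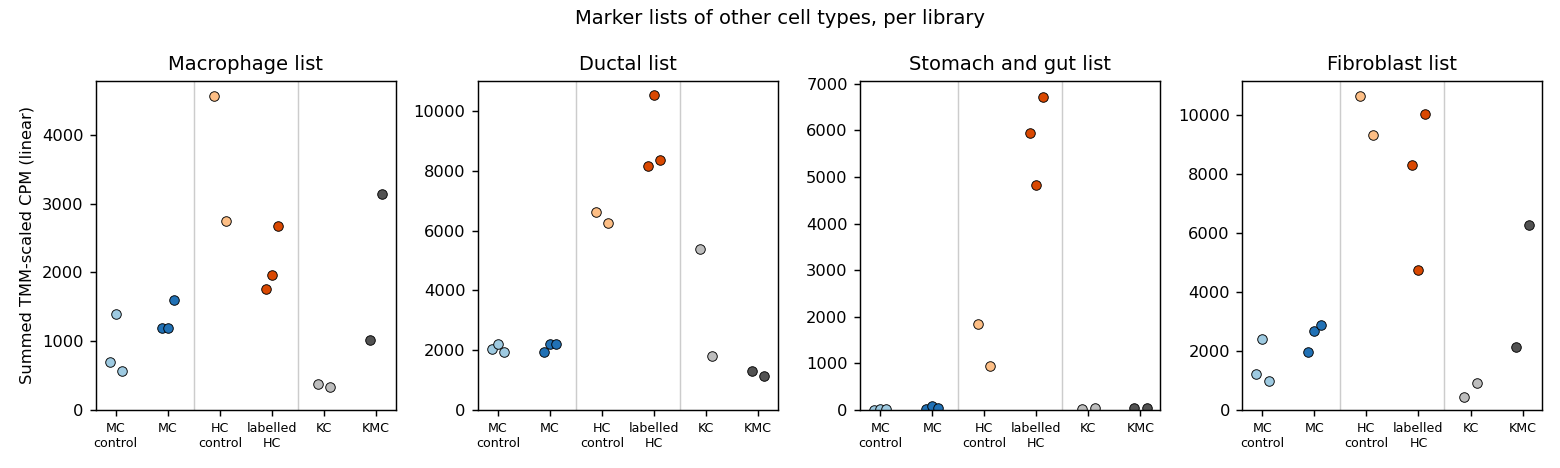
Summed TMM-scaled CPM of 4 marker lists in each library, on linear axes from 0. The stomach and gut list sits at 4839 to 6726 in the libraries labelled HC and 943 to 1840 in their controls, and the macrophage list at 1019 to 3140 in KMC and 329 to 374 in KC.

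With kinase-dead M46, no member passed the test in MC, and the lowest values against control were those of Srxn1 and Mt1. Srxn1 was at 33.4, 34.03 and 44.9 CPM in MC and 45.1, 61.5 and 49.6 in the controls. The groups just missed each other, with a log2 fold change of -0.47 (SE 0.17, edgeR unadjusted p = 0.0243, adjusted p = 0.275). Mt1 was at 615, 538 and 397 CPM in MC and 717, 692 and 677 in the controls, also without overlap, with -0.43 (SE 0.20, edgeR adjusted p = 0.359). Mt2 overlapped between the groups: it was at 18.3, 13.3 and 8.20 CPM in MC and 16.8, 17.8 and 10.3 in the controls. Its log2 fold change of -0.18 (SE 0.32) was lower too, and its difference from that of Mt1 was not tested.

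The other 7 members overlapped between MC and control. Hmox1 was at 47.2, 34.3 and 53.4 CPM in MC and 33.1, 55.1 and 19.6 in the controls, a wide spread among controls. The 11 macrophage markers listed summed to 1188 to 1603 CPM in MC and 565 to 1391 in the controls. Of them 7 were higher at an unadjusted p below 0.05 by edgeR, where 9.2% of all genes were. None was at 0, and the part of these markers in Hmox1 was not tested. Txnrd1 was at 60.9 to 70.9 CPM in MC and 69.9 to 82.2 in the controls, with -0.22 (SE 0.12). Gclc, at 33.2 to 61.6 and 41.3 to 59.99 CPM, had a log2 fold change of -0.03 (SE 0.24).

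By count, 0 of 10 members were called in MC by edgeR, where 0% of all 13902 genes were, and 0 by DESeq2, where 3.26% were. At an unadjusted p below 0.05 in edgeR, 1 member was lower (Srxn1), where 5.46% of all genes were, and 0 were higher, where 9.2% were. Lower without overlap were 2 members, where 9.89% of all genes were, and 0 were higher without overlap, where 10.9% were. Of the 41 further NRF2 target genes 37 were tested in MC, and 17 were higher and 20 lower, with a median of -0.03 against -0.02 over all genes. Of them 4 were higher and 1 lower at an unadjusted p below 0.05 in edgeR, edgeR called none, and DESeq2 called 1 (Ugt1a7c).

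The difference between the M46 effect and the effect in the libraries labelled HC was tested directly, over 14884 genes. In 9 of 10 members the M46 effect was the lower of both, with a median difference of -0.72 against -0.03 over all genes. This count takes the HC label as given: with the direction of the HC comparison turned, an alternative added after the data were seen, 8 of 10 members had the higher M46 effect (Nqo1 at 1.76, edgeR adjusted p = 0.199) and none was called. The smallest p, with the label as given, was that of Txnrd1 (-0.48, SE 0.16; edgeR adjusted p = 0.121 and DESeq2 adjusted p = 0.0304), followed by Nqo1 (-1.31, SE 0.46; edgeR adjusted p = 0.139 and DESeq2 adjusted p = 0.0506). Hmox1 was the member in which the M46 effect was the higher (1.13, SE 0.43; edgeR adjusted p = 0.172). No member was called by edgeR, where 2.18% of all genes were, or by DESeq2, where 7.17% were. At an unadjusted p below 0.05 in edgeR, 5 members had a lower M46 effect (Nqo1, Gclm, Slc7a11, Txnrd1 and Srxn1), where 8.43% of all genes did, and 1 a higher one (Hmox1), where 12.3% did. Of the further NRF2 targets 13 of 40 had a lower M46 effect at that p and 0 a higher one, and edgeR called Abcc3 (-1.09, SE 0.23; edgeR adjusted p = 0.0389), a call that was lost without 9 of the 11 libraries, while DESeq2 called 5. The experiments differed in age, in library kit and in the label of their controls, B control for MC and WT for HC. By label the HC comparison, HPK1/B against WT, thus differs in the Cre as well. Scaled by library size alone only 1 member had an unadjusted p below 0.05 in edgeR, while the median of all genes was 0.34.

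Of the regulators of NRF2 edgeR called none in MC, in the libraries labelled HC or in the difference of both effects, and DESeq2 called 1, Sqstm1 in the difference (edgeR -0.99, adjusted p = 0.0483; DESeq2 adjusted p = 0.000207). In the libraries labelled HC the smallest p was that of Bach1, a repressor at AREs, which was lower by edgeR at an unadjusted p of 0.0130 (log2 fold change -0.33, SE 0.10, adjusted p = 0.192). In MC the smallest p was that of Sqstm1, the p62 protein that draws KEAP1 into autophagy, with -0.90 (SE 0.19, edgeR adjusted p = 0.104 and DESeq2 adjusted p = 7.54e-05). Of the 15, 4 were lower and 1 higher in MC at an unadjusted p below 0.05, where 5.46% of all genes were lower and 9.2% higher. With the HC label 1 was lower and 0 higher, where 7.47% and 8.39% were, so a single lower gene of 15 is near the share of all genes. Nfe2l2 had a log2 fold change of 0.06 (SE 0.14) in MC and 0.14 (SE 0.12, edgeR adjusted p = 0.644) in the libraries labelled HC, and overlapped in both.

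In KMC against KC, which chose the members and is a description, Nfe2l2 had a log2 difference of 0.83. There 19 of 23 zinc genes were lower, 14 of them without overlap, and 13 of 19 other antioxidant enzymes were lower, 9 of them without overlap, where 30.9% of all genes were. The zinc exporter Slc30a2 (-2.65) and the importer Slc39a5 (-1.92), named after their values were seen, were lower under each scaling, but the counts hang on it: under library size alone 3 zinc genes and 2 antioxidant enzymes were lower, and with library sizes that leave out the acinar list 12 and 7.

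Against their own controls, MC and the libraries labelled HC showed few changes in the other lists. There edgeR called none of their genes and DESeq2 called 1 (Slc39a8 in MC). Among 19 antioxidant enzymes outside the NRF2 list, the smallest p was that of Sod1, the cytosolic superoxide dismutase, in the libraries labelled HC (0.53, SE 0.12; edgeR adjusted p = 0.122), and that of Gpx3, the secreted glutathione peroxidase, in MC (0.67, SE 0.23; edgeR adjusted p = 0.260). Among the zinc genes, the zinc importer Slc39a4 had 0.60 (SE 0.11, edgeR adjusted p = 0.0809) in the libraries labelled HC, and the importer Slc39a8 had 1.16 (SE 0.34, edgeR adjusted p = 0.215 and DESeq2 adjusted p = 0.0281) in MC. Of 22 zinc genes tested in each, 3 were higher and 2 lower at an unadjusted p below 0.05 in edgeR with the HC label. Over all genes 8.39% were higher and 7.47% lower there. In MC 1 of the 22 was higher, where 9.2% of all genes were, and nothing is read from these counts. Iron genes were led by ceruloplasmin, Cp (-0.58, SE 0.17; edgeR adjusted p = 0.192), in the libraries labelled HC and by the iron transporter Slc11a2 (-0.28, SE 0.11; edgeR adjusted p = 0.313) in MC. Among glucocorticoid-induced genes the smallest p was that of Hsd11b1, which regenerates active glucocorticoid, in the libraries labelled HC (-0.46, SE 0.19; edgeR adjusted p = 0.317) and that of Ddit4 in MC (-0.53, SE 0.17; edgeR adjusted p = 0.251). Of the 41 further NRF2 targets, Ugt1a7c, a glucuronosyltransferase, had the smallest p in MC (1.18, SE 0.35; edgeR adjusted p = 0.215 and DESeq2 adjusted p = 0.0335). None of the 10 glucocorticoid genes had an unadjusted p below 0.05 in the libraries labelled HC, and Ddit4 alone did in MC.

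Across the 15 libraries, after each table was centred on its own mean of log2(CPM + 1), Mt1 was the gene most like Mt2 of 10929 compared (Pearson r = 0.96). It was followed by Mfsd3 (0.91), Top1mt (0.89), Rufy4 (0.89) and Tmem102 (0.88). None of the NRF2 targets compared was near them: Gclm had r = 0.69 and rank 1069, while Gpx2 and Hmox1 had -0.53 and -0.57. Nqo1 was not among the genes compared, since its mean was below 2 CPM in the MC and KMC tables. Within the members, Txnrd1 and Srxn1 had r = 0.85, Mt1 and Gclm 0.81, and Hmox1 and Gclm -0.84. These are descriptions over 15 libraries that share their scaling within a table, and the KC and KMC libraries carry much of the range of Mt2.

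**Figure D5:**
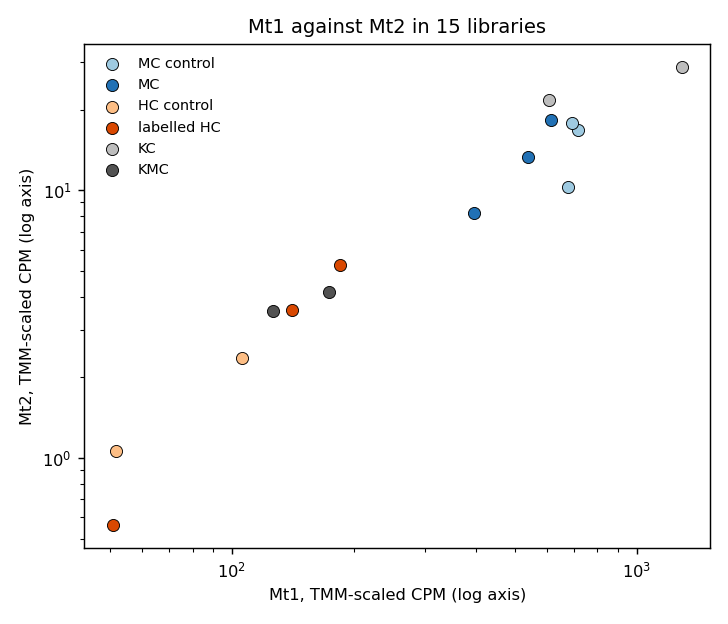
Mt1 against Mt2 in TMM-scaled CPM, each point 1 library, both axes logarithmic. The KC libraries lie at the top right (Mt2 at 21.7 and 28.9) and the HC table at the lower left (Mt2 at 0.561 to 5.24).

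Per kilobase of exon, Mt1 was above every NRF2 target in each of the 6 groups. Its mean ran from 63.2 CPM per kilobase in the controls of the HC table to 764 in KC. Mt2 is left out of this order, since most of its exon bases lie under Gm45774 and its level cannot be set against other genes. The order below it differed between tables. In the HC table Gclc and Gpx2 followed, at 52.6 and 50.8 CPM per kilobase in the libraries labelled HC. In the MC table Hmox1 led the NRF2 targets, at 25.7 in MC and 20.5 in its controls, and in KC Txnrd1 and Gclc did, at 5.48 and 5.41. Nqo1, at 22.2 CPM per kilobase in the libraries labelled HC, was at 1.04 in MC and 0.346 in KMC. These means were not tested, and neighbours such as Txnrd1 and Gclc in KC differed by less than the spread between libraries.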

How the data were processed

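Total RNA of 15 pancreas pools was sequenced, and the authors deposited raw counts of reads per gene in 3 tables, one for MC with control, one for HC with control and one for KMC with KC. Reads had been aligned with STAR to mm10 and counted against GENCODE, and HTSeq is named in the submitters' processing notes. Per the labels, the HC and KMC tables used a stranded KAPA kit and the MC table a standard Illumina protocol. A deposited table of the authors' own fold changes and p-values for MC was not used.

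Samples were grouped by the labels. Within each table genes were filtered with filterByExpr, scaled by TMM and fitted with edgeR 4.0.16 (glmQLFit, glmQLFTest) in R 4.3.3. An SE is the size of the fold change over the root of its F statistic. A gene was called where its p, adjusted by Benjamini-Hochberg over all genes tested, was at most 0.05 and its log2 fold change was 1 or more in size. The difference of M46 and HPK1 effects was the interaction contrast over the genes of both tables. Steps were tested on simulated data. DESeq2 1.42.0 and other scalings, filters, a replicate block, a newer fit and the removal of each library were alternatives. Positions and exon overlaps were read from GENCODE vM21, and promoter windows from RefSeq (GRCm38.p6). The precision of a single level rests on total counts of 29766575 to 38745907 per library and covers counting error only. An SE or p-value of the fits also takes in the spread between pools.

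The members and all lists were chosen with earlier results of these data known. Named genes were the 10 members, the called genes and the gene of smallest p of each pathway list in MC and in HC, and the 5 genes most like Mt2 (mean of at least 2 CPM in each table, pseudocount 1). Nfe2l2, Ftl1, Txn1, Lgr5 and Spp1 were named outside this rule, as were Map4k1, Xist, Ddx3y and Gm45774. Others are marked where they appear.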

Additional observations from a re-analysis of the deposited data

Results flagged for a closer look

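Abcc3 differed between the experiments by the test of the difference itself. The M46 effect minus the effect in the libraries labelled HC was -1.09 on the log2 scale (SE 0.23, edgeR adjusted p = 0.0389). Its log2 fold change was -0.04 (SE 0.17) in MC against control and 1.04 (SE 0.14) in the libraries labelled HC against control, and in these all 3 libraries were above both controls. The call was lost under library size alone (-0.74, adjusted p 0.412), without the counts of the acinar list (-0.94, adjusted p 0.135) and without 9 of the 11 libraries. Of these, MC control replicate 2 left -0.96, under the size of 1 that a call needed, with an adjusted p of 0.0208, and the other 8 left an adjusted p of 0.0505 (without MC replicate 1) to 0.184 (without HC control replicate 1). It was kept without MC control replicate 3 and without replicate 1 labelled HC. With the direction of the HC comparison turned, an alternative added after the data were seen, the value was 1.02 with an adjusted p of 0.160. The libraries labelled HC had less Map4k1 than their controls, against the label. The experiments differ in age, library kit and control label (B control for MC, WT for HC), whose part was not tested. Groups of 2 or 3 libraries are too small for a search for single outlying samples.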

How the results depend on the processing

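Each group held 2 or 3 pools. The lowest counts of a member in a library were 15 for Nqo1 in the KMC table and 19 for Mt2 in the HC table. Called genes in MC against control numbered 0 in edgeR, 453 in DESeq2, 1 under library size alone, and 0 to 718 without 1 library, the most without control replicate 2 (171 without MC replicate 1). No member was called in MC under any alternative run, and pathway-list genes called numbered 2 in DESeq2 and 0 to 5 without 1 library. In the libraries labelled HC the counts of called genes were 104 in edgeR, 468 in DESeq2, 51 with library sizes that leave out the acinar list, 395 with no filter and 0 to 379 without 1 library, with 0 without HC replicate 2, control replicate 1 or control replicate 2, 3 without HC replicate 3 and 379 without HC replicate 1. There the members called numbered 1 (Nqo1) in DESeq2, with no filter and without HC replicate 1, and 0 to 1 over all removals of a library. Pathway-list genes called were 1 in edgeR, 6 in DESeq2 and with no filter, 3 in the newer fit, 0 under library size alone and without the acinar list, and 0 to 9 without 1 library. For the difference of both effects, called genes were 325 in edgeR, 1005 in DESeq2, 98 under library size alone, 165 without the acinar list and 0 to 1584 without 1 library, the most without MC control replicate 2, which also gave the 1 member called (Hmox1, 1.57). There the members called ran from 0 to 1 without 1 library and the pathway-list genes called were 8 in DESeq2, 2 with DESeq2 size factors, 0 under library size alone and without the acinar list, and 0 to 8 without 1 library. The cause was not tested for any of these. The replicate number as a block (replicate block) called 339 genes in the libraries labelled HC, 1 member (Nqo1, 1.23) and 4 pathway-list genes, and 0 genes in MC. Same-numbered MC and control libraries had correlations of 0.077, 0.32 and -0.37 of their deviations from the group means, and differently numbered ones -0.44 to 0.41. Same-numbered libraries labelled HC and their controls had 0.22 and 0.21, and those of KMC and KC 0.12. In these tables the control group held 2 libraries, so each value has a mirror image of opposite sign. The correlations there cannot decide whether same-numbered libraries were paired. The Mt2 value in KMC was -2.71 under the block. Directions turned as follows. In MC, library size alone, which moved the median of all genes to 0.29, turned Mt2 (0.053), Gclc (0.28), Gclm (0.10), Slc7a11 (0.10), Txnrd1 (0.10), Abcc3 (0.24) and Slc11a2 (0.059), and leaving out the acinar list turned Gclc (0.062) and Abcc3 (0.035). Without 1 library in turn, the MC values ran from -0.46 to 0.076 for Mt2, -0.033 to 0.43 for Nqo1, -0.27 to 0.18 for Gclc, -0.010 to 0.79 for Gpx2 and -0.19 to 0.093 for Abcc3. For the difference of both effects, Gpx2 turned to 0.31 under library size alone and 0.12 without the acinar list, and ran from -0.38 to 0.42 without 1 library. With the direction of the HC comparison turned, an alternative added after the data were seen, 16 genes, 0 members and 0 pathway-list genes were called, and the values turned for Mt1 (0.26), Mt2 (0.70), Hmox1 (-0.48), Nqo1 (1.76), Gclc (0.71), Gclm (0.13), Slc7a11 (0.46), Gpx2 (0.71), Txnrd1 (0.037) and Abcc3 (1.02). In KMC the Mt2 value was -1.25 under library size alone and -2.11 without the acinar list, and ran from -2.91 to -2.51 without 1 library. Apart from the turned HC direction, all other directions of the members held under the alternatives run in MC, in the libraries labelled HC and in their difference.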
